A study of Mus musculus with 10 samples.

Results

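The cadherins and protocadherins are the calcium-dependent adhesion molecules that hold cells together and let them tell each other apart. They were taken from the gene count table by symbol, as every row named Cdh or Pcdh with a number, or Pcdha, Pcdhb or Pcdhg. This gave 80 of 43346 rows, of which 70 had at least 1 read in the 10 libraries. The 80 genes comprised 18 classical cadherins (5 of type I and 13 of type II), 5 other cadherins, 12 non-clustered protocadherins and 45 clustered protocadherins (8 of the alpha, 22 of the beta and 15 of the gamma cluster). A further 13 genes of the clusters carried capital, human-style symbols in the table. They were matched by gene ID, are named as such wherever they appear and are in no count of the 80.

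RNA was measured in mouse O9-1 cells, a tetraploid cranial neural crest line grown on Matrigel in medium preconditioned on feeder cells. The wildtype group held 4 biologically independent samples. The 3 Kat5 ko clones (Kat5/1 to Kat5/3) and the 3 Ep400 ko clones (Ep400/1 to Ep400/3) were made with CRISPR/Cas9, each grown from a single sorted cell, and harvested soon after sorting. Kat5 (Tip60) is the acetyltransferase and Ep400 the ATPase of the Tip60/Ep400 chromatin remodeling complex, and the design asks how the loss of either alters transcription in neural crest cells. All Kat5 alleles of the Kat5 ko clones carried frameshifts. Clone Ep400/1 carried frameshifts in all Ep400 alleles, whereas clones Ep400/2 and Ep400/3 kept alleles with short in-frame deletions at the ATP binding site. The sources do not say that the wildtype cells were passed through a single cell, so the loss of a gene and the growth of a line from 1 cell cannot be told apart. Each clone is 1 library, and both knockouts were compared with the same wildtype libraries.

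Library totals lay between 30968945 and 48301792 reads on genes. Values per library are given as counts normalized by the trimmed mean of M values (TMM) to the average library, and called normalized counts. Kat5 itself had 1837 to 2163 normalized counts in wildtype and 618 to 872 in the Kat5 ko clones, and Ep400 had 5899 to 6216 in wildtype and 2059 to 2311 in the Ep400 ko clones. Of 12 markers of neural crest and mesenchyme, Sox10 and Foxd3, which define early and glial crest cells, had no read in any library, and Ngfr had at most 11.8 normalized counts. Vim, Prrx1, Twist1, Sox9, Snai2 and Pdgfra were expressed in all libraries. Tfap2a, a specifier of neural crest, had 731 to 4301 normalized counts and Msx1 165 to 2034.

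Classical cadherins bind like molecules on the neighboring cell and are tied through catenins to the actin cytoskeleton at adherens junctions. Neural crest cells are known for exchanging one classical cadherin for another when they leave the neural tube and migrate. Non-clustered protocadherins adhere weakly and signal through their cytoplasmic tails. The clustered protocadherins stand in 3 neighboring gene clusters, where each variable exon has a promoter of its own, a cell uses only some of them, and the choice depends on CTCF, cohesin and DNA methylation. In the alpha and gamma clusters the variable exons are joined to shared constant exons, while the beta genes have no constant exon. How reads on the shared exons were counted is not stated in the sources used here.

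Promoter sequences were at hand for 22 of the 80 genes. They are from RefSeq on GRCm38.p6, run from 250 bases before to 50 bases after the start of transcription, and have capitals at each CG dinucleotide. Shown are the windows of the called non-clustered genes of the Ep400 comparison that have one, to give the sequence context of genes whose transcripts rose. The Pcdh17 window is at chr14:84443313-84443612 on the plus strand, the Pcdh9 window (the first of 2 for the gene) at chr14:93890630-93890929 on the minus strand, the Pcdh15 window at chr10:73821617-73821916 on the plus strand and the Cdh26 window at chr2:178430265-178430564 on the plus strand. In GENCODE M21 the Pcdh15 gene spans chr10:73099342-74649737. Its window thus lies within the gene, downstream of the first annotated start.
Pcdh17: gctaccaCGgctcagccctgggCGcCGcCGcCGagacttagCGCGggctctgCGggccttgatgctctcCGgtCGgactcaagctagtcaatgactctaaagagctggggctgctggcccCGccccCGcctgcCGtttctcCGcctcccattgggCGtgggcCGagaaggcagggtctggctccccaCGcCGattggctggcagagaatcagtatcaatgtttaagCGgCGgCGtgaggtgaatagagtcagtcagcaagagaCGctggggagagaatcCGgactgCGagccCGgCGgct
Pcdh9: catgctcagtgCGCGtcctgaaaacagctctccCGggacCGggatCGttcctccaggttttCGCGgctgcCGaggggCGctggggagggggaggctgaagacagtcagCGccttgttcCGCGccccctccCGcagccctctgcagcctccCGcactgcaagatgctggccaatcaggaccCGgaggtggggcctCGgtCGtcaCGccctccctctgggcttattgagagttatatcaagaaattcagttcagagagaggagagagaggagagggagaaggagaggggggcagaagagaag
Pcdh15: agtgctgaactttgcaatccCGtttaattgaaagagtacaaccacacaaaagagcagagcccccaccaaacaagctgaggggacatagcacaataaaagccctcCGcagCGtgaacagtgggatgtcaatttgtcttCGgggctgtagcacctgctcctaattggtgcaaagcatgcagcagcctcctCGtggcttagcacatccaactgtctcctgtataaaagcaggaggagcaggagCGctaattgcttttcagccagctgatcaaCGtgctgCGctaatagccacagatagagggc
Cdh26: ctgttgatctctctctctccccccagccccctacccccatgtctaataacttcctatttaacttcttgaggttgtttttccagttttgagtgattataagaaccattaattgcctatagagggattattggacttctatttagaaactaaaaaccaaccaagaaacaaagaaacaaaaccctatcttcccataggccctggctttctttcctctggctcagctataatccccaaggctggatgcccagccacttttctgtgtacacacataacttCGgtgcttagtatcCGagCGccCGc
The windows held 26 CG dinucleotides in Pcdh17, 18 in Pcdh9, 8 in Pcdh15 and 4 in Cdh26, against a median of 7 over all 32851 promoter windows. The hexamer CAGGTG, the E-box read by Snail and Zeb repressors, was searched on both strands, as was TATAAA. Both were found in the Pcdh15 window, 1 time each, and in none of the other 3 windows. CAGGTG occurs in 20.2% and TATAAA in 13.6% of all windows of this length, so these matches describe the sequence only. No window was at hand for Cdh11, Cdh13 or Cdh3.

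To ask which members the cells used, wildtype levels were compared per length, as reads per kilobase of exon not shared with another gene scaled to the library total (RPKM, reads per kilobase and per megaread). The highest levels were those of Pcdh18 (34.0 ± 6.36 RPKM, SD, n = 4), Pcdh7 (30.8 ± 5.17) and Cdh2, the N-cadherin of mesenchyme and neural tissue (23.1 ± 4.00). The ranges of these neighbors in the order overlapped. A gap followed, and the next gene was the gamma protocadherin Pcdhgb8 with 11.7 ± 1.25 RPKM. Cdh26, Pcdh19, Pcdh20, Cdh13 and Pcdhgb6 followed with means of 9.99 to 4.82 RPKM and overlapping ranges. Cdh24, a type II cadherin, had 3.21 ± 0.539 RPKM, and the mesenchymal type II cadherin Cdh11 only 0.983 ± 0.370 RPKM. Among the rows matched by gene ID, Pcdhgc3 exceeded every other member with 52.4 RPKM. Its exons overlap an antisense gene and share 38.5% of their bases with other gamma genes, so its level is uncertain. Pcdhgb8 and Pcdhgb6 share 45.9% and 45.2% of their exon bases, so their levels and places in the order are uncertain too.

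Most classical cadherins had few or no reads. Cdh1 (E-cadherin) had 0 to 10.8 normalized counts in wildtype, Cdh5 (VE-cadherin of endothelium) 0 to 7.61, and Cdh4 and Cdh15 at most 1.96 in any library. The 10 genes without a read were Cdh7, Cdh8, Cdh9, Cdh16, Pcdh11x, Pcdhb1, Pcdha4, Pcdha6, Pcdha7 and Pcdha8. The 8 alpha protocadherins of the symbol rule together reached at most 3.61 normalized counts in any library. In the beta cluster the level followed position: the 7 genes Pcdhb16 to Pcdhb22 at its downstream end had wildtype means of 0.513 to 1.79 RPKM, whereas the 15 genes Pcdhb1 to Pcdhb15 had 0 to 0.363 RPKM.

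Summed over each class, the classical and the other cadherins of the Ep400 ko clones lay apart from all other libraries, while both classes of protocadherins overlapped. The summed level of the 18 classical cadherins was 21.8 to 30.2 RPKM in wildtype, 26.5 to 42.2 RPKM in the Kat5 ko clones and 56.2 to 63.4 RPKM in the Ep400 ko clones, which lay above all other libraries. Cdh11 carried much of this, and without it the sums of the other 17 were 39.7, 49.0 and 30.8 RPKM in Ep400/1, Ep400/2 and Ep400/3, against 21.3 to 28.9 in wildtype and 36.8 in Kat5/1, so that the knockouts overlapped. The 5 other cadherins reached 9.81 to 27.2, 16.9 to 31.6 and 49.8 to 64.7 RPKM, again without overlap for Ep400. The 12 non-clustered protocadherins summed to 68.4 to 93.0, 73.7 to 105 and 75.1 to 117 RPKM and overlapped. The 45 clustered protocadherins summed to 28.3 to 34.0 RPKM in wildtype, 14.9 to 49.2 in the Kat5 ko clones and 22.2 to 45.2 in the Ep400 ko clones, so that both knockouts spread to either side of the wildtype range. With the 13 rows matched by gene ID the ranges were 75.4 to 91.3, 42.9 to 133 and 77.5 to 119 RPKM. These sums are descriptions and were not tested. The gamma genes share exons, and how reads on these were counted is not stated, so the clustered sums are uncertain. The lowest and the highest clustered sum were both found in Kat5 ko clones.

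**Figure D1:**
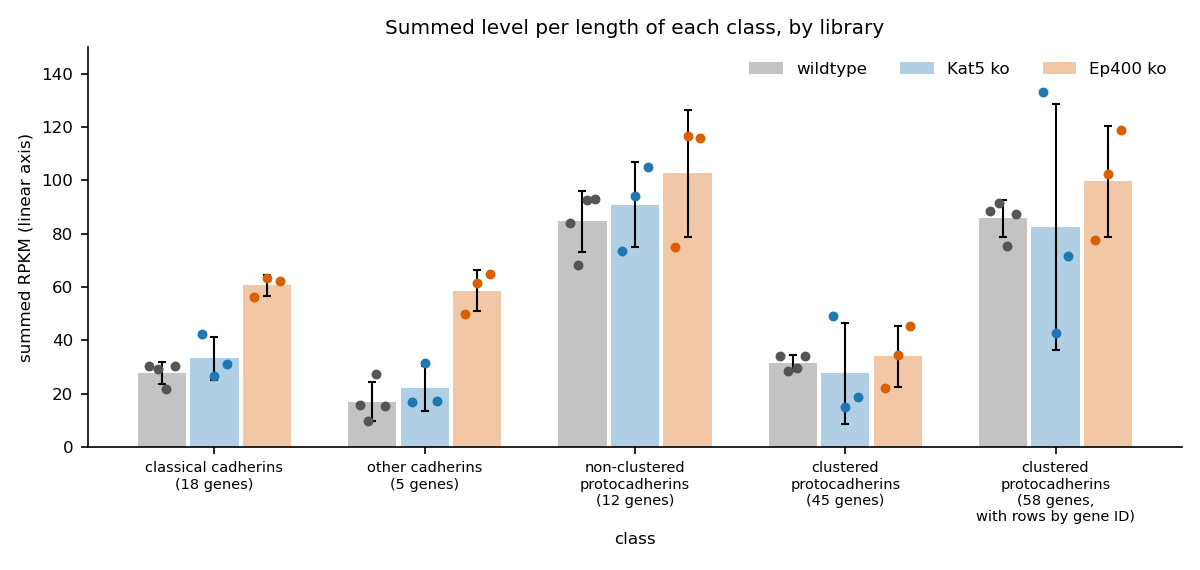
Summed level per length (y axis, RPKM, linear) of each class of cadherin (x axis) in 4 wildtype libraries, 3 Kat5 ko and 3 Ep400 ko clones. Points are libraries, bars are group means and error bars 1 SD. The Ep400 ko clones lie above all other libraries for classical and other cadherins, and the Kat5 ko clones spread from 14.9 to 49.2 RPKM for the clustered protocadherins.

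The first question was which of the genes changed on loss of Ep400. In the Ep400 ko clones 8 of the 43 genes high enough to test were higher and 2 were lower at an adjusted p of at most 0.05, by the quasi-likelihood test of edgeR, adjusted after Benjamini and Hochberg over all 13836 genes tested. Over all genes tested, 8.0% were higher and 5.72% lower. The median log2-fold change was 0.23 over the 43 genes and 0.04 over all genes. DEGs, which also had a log2-fold change of 1 or more in either direction and over 100 normalized counts on average in 1 of the groups, numbered 7 of 43, against 6.42% of all genes. By class, 1 classical cadherin was higher and 1 lower of 4 tested, 2 of 3 other cadherins and 3 of 8 non-clustered protocadherins were higher, and 2 clustered protocadherins were higher and 1 lower of 28. Of the tested genes, 11 lay above and 3 below the wildtype range in all Ep400 ko clones, where 16.1% and 14.1% of all genes did so. Pcdh15 passed the filter on low counts only through the Ep400 ko clones, and Cdh3 and Pcdhb11 only through wildtype, so they had to differ to be tested.

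Cdh11, the type II cadherin of mesenchyme and migrating neural crest, changed most in absolute counts among the classical cadherins. It had 416, 283, 176 and 443 normalized counts in the 4 wildtype libraries, 1781, 339.9 and 181 in Kat5/1, Kat5/2 and Kat5/3, and 5557, 4816 and 10554 in Ep400/1, Ep400/2 and Ep400/3. All Ep400 ko clones were above all wildtype libraries, and clone Kat5/1 stood apart from both other Kat5 ko clones, which were within the wildtype range. The log2-fold change on loss of Ep400 was 4.40 ± 0.40 (SE) with an adjusted p of 0.00133. The gene lies at chr8:102632095-102785642 on the minus strand (GRCm38, GENCODE M21).

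Cdh3, the P-cadherin of epithelia, was the classical cadherin that fell. It had 78.1, 134, 38.3 and 71.5 normalized counts in wildtype, 52.9, 7.44 and 8.29 in the Kat5 ko clones and 5.30, 0 and 3.75 in the Ep400 ko clones, with a log2-fold change of -4.62 ± 0.82, adjusted p = 0.0107 for Ep400. The wildtype level was low throughout, and the mean of no group passed 100 normalized counts. Summed epithelial markers were below wildtype in both knockouts, also in Kat5/1, where Cdh3 was within the wildtype range. Of 9 such markers 3 were high enough to test, Krt8 (log2-fold -2.21 ± 0.48, adjusted p = 0.0217) and Krt18 (adjusted p = 0.0186, with 42.4 ± 42.9 normalized counts in wildtype and 0.624 ± 1.08 in the Ep400 ko clones, tested only through wildtype) fell, and the summed markers were 67.4 to 182 normalized counts in wildtype, 25.7 to 32.2 in the Kat5 ko clones and 21.2 to 32.8 in the Ep400 ko clones. Krt5 and Krt14, which define basal epithelium, had at most 2.95 normalized counts in any library. The part of such cells in the level of Cdh3 was not tested, and fewer cells of a type cannot be told apart from less RNA per cell in these bulk samples.

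Cdh2 and Cdh24 completed the classical cadherins that could be tested. Cdh2 had 7595, 7384, 5201 and 7831 normalized counts in wildtype, 9912, 6321 and 8059.6 in the Kat5 ko clones and 10473, 13535 and 8078 in the Ep400 ko clones. The Ep400 ko clones lay above the wildtype range, but the difference did not pass the threshold (log2-fold 0.61 ± 0.21, adjusted p = 0.0905). Cdh24 had 446, 406, 501 and 333 normalized counts in wildtype, 498, 593 and 439 in the Kat5 ko clones and 644, 502 and 455 in the Ep400 ko clones, with overlapping ranges.

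Cdh22, Cdh6 and Cdh19, all of type II, were rare and did not pass the filter on low counts. Cdh22 had 6.18, 76.4 and 75.8 normalized counts in the Ep400 ko clones and 0 to 3.33 in wildtype. Cdh6, a marker of early neural crest, had 127 normalized counts in clone Kat5/3, 17.7 in WT/3, 17.7 in Ep400/1 and at most 1.24 in all others. Cdh19, known from Schwann cell precursors, had 17.7 in Ep400/1, 16.9 in Ep400/3 and at most 4.15 elsewhere. Without the filter edgeR called Cdh22 (adjusted p = 0.0119) and Cdh19 (0.048) higher in the Ep400 ko clones than in wildtype.

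Of the 3 other cadherins tested, Cdh13 and Cdh26 rose. Cdh13, the T-cadherin that is anchored to the membrane by a lipid and binds adiponectin, had 2758, 1378, 4924 and 2739 normalized counts in wildtype, 3936, 1861 and 1011 in the Kat5 ko clones and 6272, 12278 and 12622 in the Ep400 ko clones. Every Ep400 ko clone was above every wildtype library (log2-fold 1.82 ± 0.40, adjusted p = 0.0232). Cdh26, a cadherin described on epithelial and immune cells, had 1049, 736, 1752 and 993 in wildtype, 848, 3079.8 and 1683 in the Kat5 ko clones and 3959.5, 3656 and 3939.5 in the Ep400 ko clones. The 3 Ep400 ko clones differed little among themselves, and the log2-fold change was 1.77 ± 0.26, adjusted p = 0.0062. Cdh23, a component of the tip links of hair cells, was tested in this comparison and not called, with 12.4 to 30.0 normalized counts in the Ep400 ko clones. Cdh13 is at chr8:118283733-119324921 and Cdh11 and Cdh3 are on the same chromosome. The median gene of chromosome 8 differed from the wildtype mean by −0.20, 0.00 and −0.13 on the log2 scale in Ep400/1, Ep400/2 and Ep400/3, and its part in these results was not tested.

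**Figure D2:**
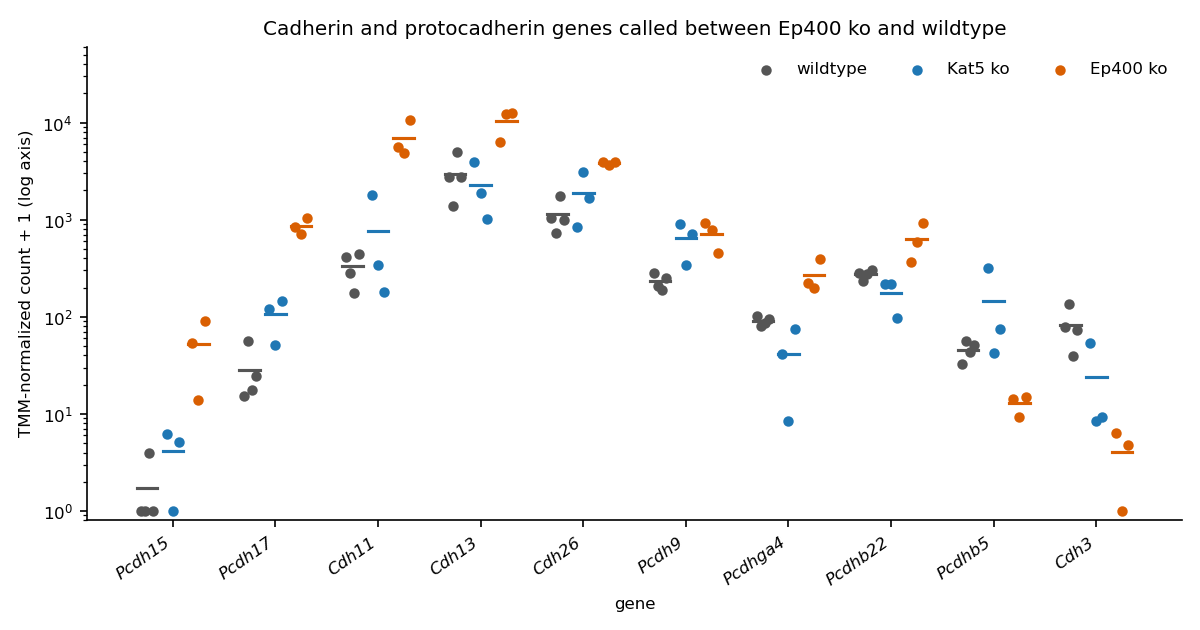
Normalized counts plus 1 (y axis, log scale) of the 10 cadherin and protocadherin genes called between Ep400 ko and wildtype (x axis), for 4 wildtype libraries, 3 Kat5 ko clones and 3 Ep400 ko clones. Points are libraries and horizontal lines group means. The Ep400 ko clones are above all wildtype libraries in the first 8 genes and below them in Pcdhb5 and Cdh3.

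Among the non-clustered protocadherins Pcdh17, Pcdh9 and Pcdh15 rose in the Ep400 ko clones. Pcdh17, a delta-2 protocadherin known from axons and synapses, had 14.4, 55.5, 16.7 and 23.3 normalized counts in wildtype, 120.3, 49.6 and 145 in the Kat5 ko clones and 847, 711 and 1043 in the Ep400 ko clones. The Ep400 ko clones lay above all other libraries, and the Kat5 ko clones overlapped the wildtype range through WT/2 and Kat5/2. The log2-fold change on loss of Ep400 was 4.98 ± 0.47, adjusted p = 0.00158. Pcdh9, a delta-1 protocadherin, had 284, 206, 186 and 249 normalized counts in wildtype, 902, 344 and 712 in the Kat5 ko clones and 922, 774 and 451 in the Ep400 ko clones, so that every clone of either knockout was above wildtype. It passed the test for Ep400 (1.63 ± 0.28, adjusted p = 0.00985). Pcdh15, the partner of Cdh23 in tip links, had 0, 0, 2.95 and 0 in wildtype, 5.19, 0 and 4.15 in the Kat5 ko clones and 52.1, 12.9 and 89.0 in the Ep400 ko clones. It was called with an adjusted p of 0.0121, and since no wildtype library had more than 3 counts its mean in the Ep400 ko clones was at least 16.7-fold higher, taking 3 counts as the floor of each wildtype library.

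The most abundant protocadherins were not called. Pcdh7, which binds protein phosphatase in its tail, had 12093, 9628, 14606 and 12819 normalized counts in wildtype, 13254, 10106 and 14092 in the Kat5 ko clones and 12834, 26769 and 13812 in the Ep400 ko clones. Pcdh18 had 7258, 5208, 6715 and 8291, then 2965, 10165 and 10220.2, then 3313, 4020.4 and 9843 normalized counts in the same order. The groups overlapped for both genes. Pcdh19, an X-linked gene that sorts cells by identity, had 4907, 3280.3, 1207 and 5493 in wildtype, 7328, 3268 and 3944 in the Kat5 ko clones and 7036, 5141 and 9134 in the Ep400 ko clones. Pcdh20 had 709, 1733, 3870.0 and 866 in wildtype, 318, 1699 and 583 in the Kat5 ko clones and 270.1, 2328 and 744 in the Ep400 ko clones. For Pcdh20 the wildtype libraries alone spanned 709 to 3870 normalized counts. Pcdh1 had 300.5, 286, 97.2 and 234 in wildtype, 613, 128 and 1039 in the Kat5 ko clones and 605, 337 and 538 in the Ep400 ko clones, where all were above wildtype without passing the test (1.11 ± 0.39, adjusted p = 0.0925). Exons of Pcdh7 and Pcdh19 overlap antisense genes, and whether the counting used the strand is not stated. Pcdh10, which has such an overlap too, was counted in 2 clones only, with 71.5 normalized counts in Ep400/1 and 57.1 in Ep400/3, and no read in any other library.

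In the clustered protocadherins, whose 3 clusters lie on chromosome 18, both directions were found among the genes called in the Ep400 ko clones. Pcdhb18, Pcdhb19 and Pcdhb20 also had a mean of over 100 normalized counts in a group, at log2-fold changes of -0.60, 0.12 and 0.31, and were not called. Pcdhga4 had 101, 79.4, 84.5 and 93.1 normalized counts in wildtype, 40.4, 7.44 and 74.6 in the Kat5 ko clones and 224, 196 and 389.5 in the Ep400 ko clones (log2-fold for Ep400 1.59 ± 0.32, adjusted p = 0.0158). Pcdhb22 had 281, 234, 276 and 301 in wildtype, 218, 217 and 95.4 in the Kat5 ko clones and 365, 594 and 921 in the Ep400 ko clones (1.20 ± 0.30, adjusted p = 0.0345). Both rose in all Ep400 ko clones and were lower than wildtype, without passing the test, in all Kat5 ko clones. Pcdhb5 had 31.2, 55.5, 42.2 and 49.9 in wildtype, 320.5, 40.9 and 73.8 in the Kat5 ko clones and 13.2, 8.23 and 14.05 in the Ep400 ko clones, and fell on loss of Ep400 (-1.90 ± 0.42, adjusted p = 0.023). Clone Kat5/1 held several times as many Pcdhb5 reads as any other library. Among the rows matched by gene ID, Pcdhga3 had 22.8, 15.2, 50.1 and 17.5 in wildtype and 73.3, 173 and 189 in the Ep400 ko clones and was called (2.45 ± 0.54, adjusted p = 0.0215). The median gene of chromosome 18 differed from the wildtype mean by −0.02, −0.08 and 0.03 (log2) in Ep400/1, Ep400/2 and Ep400/3.

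The log2-fold changes on loss of Ep400 were also read in genomic order. At the downstream end of the beta cluster and the upstream end of the gamma cluster, the fitted values ran from 0.23 in Pcdhb21 and 1.20 in Pcdhb22 over 0.89 in Pcdhga1, 1.17 in Pcdhga2, 2.45 in Pcdhga3 (matched by gene ID), 1.58 in Pcdhgb1 and 1.59 in Pcdhga4 to 0.42 in Pcdhgb2. Downstream of it both signs were found among neighbors, with −1.10 in Pcdhga5, −0.75 in Pcdhga6, 1.12 in Pcdhga7, −1.81 in Pcdhgb4 and 0.01 in Pcdhga8 (matched by gene ID). In the upstream part of the beta cluster Pcdhb5, Pcdhb6, Pcdhb7 and Pcdhb11 had −1.90, −1.67, −0.80 and −1.37. The next tested genes downstream, Pcdhb12, Pcdhb14 and Pcdhb15, had −0.19, 0.0028 and −0.060. Pcdhb11 passed the filter on low counts only through wildtype, so it had to differ to be tested. Of these genes Pcdhb22, Pcdhga3, Pcdhga4 and Pcdhb5 passed the test, the others did not, and the pattern along the cluster was described after the values were seen and was not tested. The gamma genes share constant exons, and some neighbors share further bases. Pcdhb21 and Pcdhb22 share 9.67% and 6.88% of their exon bases. Pcdhgb1 and Pcdhga4 share 54.6% and 66.8% of theirs with other genes, against 39.5% to 45.1% in Pcdhga1 to Pcdhga3. The part of reads on shared bases in the values was not tested. For the Kat5 ko clones the same stretch from Pcdhb21 to Pcdhgb2 had values from −1.15 to −0.12, none called.

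**Figure D3:**
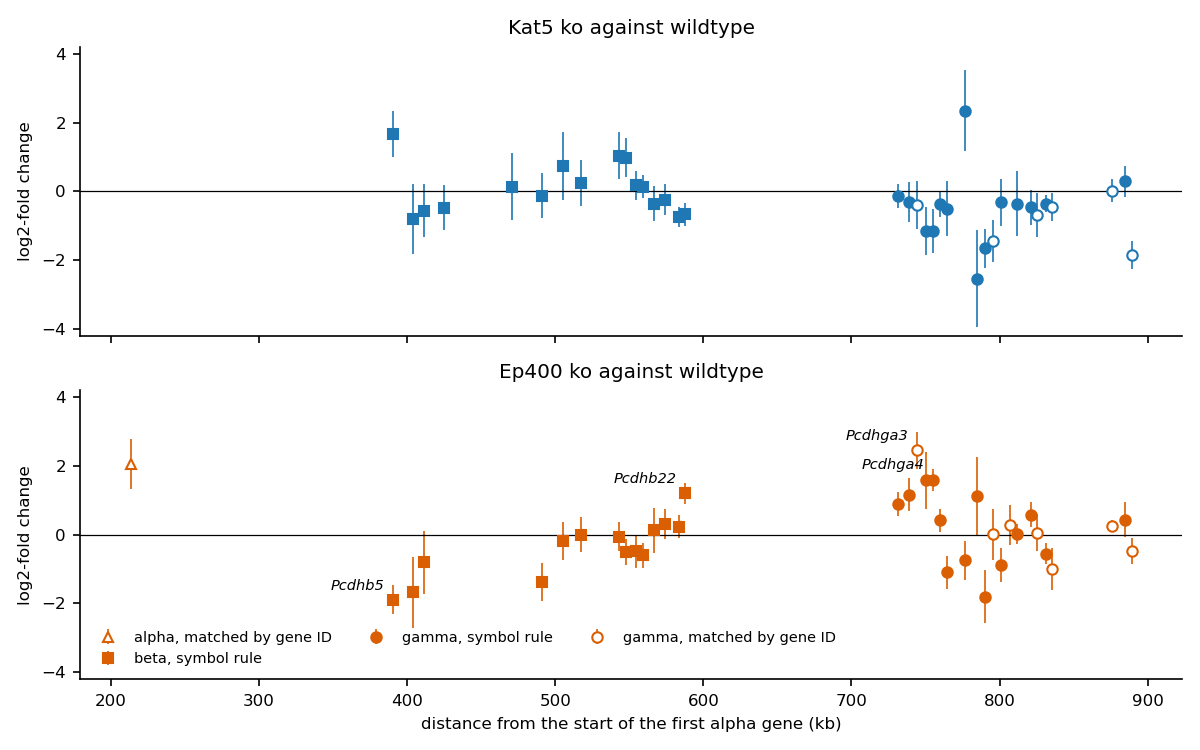
Log2-fold change with 1 SE (y axis) of each tested clustered protocadherin against its distance in kb from the start of the first alpha gene (x axis), for Kat5 ko (upper) and Ep400 ko (lower) against wildtype. Filled symbols are genes of the symbol rule, open symbols rows matched by gene ID, and names mark called genes. In the lower panel the lowest value is −1.90 in Pcdhb5, upstream in the beta cluster, and the highest 2.45 in Pcdhga3, upstream in the gamma cluster.

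The composition of each cluster was then described as the share of each gene in the reads of its cluster, with exact (Clopper-Pearson) 95% intervals that cover counting error only. Pcdhb22 took 16.9 to 21.5% of the beta reads in wildtype and was the leading beta gene of WT/3 only. In the Ep400 ko clones it led everywhere, with 39.2% (413 of 1053 counts, 95% interval 36.3% to 42.2%) in Ep400/1, 38.7% (505 of 1305 counts, 95% interval 36.0% to 41.4%) in Ep400/2 and 37.6% (984 of 2615 counts, 95% interval 35.8% to 39.5%) in Ep400/3. In the other wildtype libraries Pcdhb17 led, as in Kat5/1 and Kat5/2, and Pcdhb16 led in Kat5/3. The shares of Pcdhb22 in the Ep400 ko clones were thus close to each other although the beta total ranged from 929 to 2449 normalized counts.

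Pcdhgb8 took 46.5% to 54.1% of the reads of the 15 gamma genes in wildtype. Its share was 40.5% (1222 of 3014 counts, 95% interval 38.8% to 42.3%) in Kat5/1, 69.9% (517 of 740 counts, 95% interval 66.4% to 73.2%) in Kat5/2 and 59.9% (884 of 1476 counts, 95% interval 57.3% to 62.4%) in Kat5/3. In the Ep400 ko clones it was 23.3%, 36.0% and 31.8%, below all other libraries. In counts, Pcdhgb8 had 1199, 934, 1163 and 1119 in wildtype, 1267, 641 and 733 in the Kat5 ko clones and 377, 921 and 965 in the Ep400 ko clones, and neither comparison was called. Over the 15 gamma genes of the symbol rule the reads of the Ep400 ko clones were spread more evenly, with an effective number of genes (the exponential of the Shannon entropy of the shares) of 6.02 to 7.13, against 4.76 to 5.54 in wildtype and 3.37 to 5.30 in the Kat5 ko clones. In the beta cluster the order was the other way, with 6.64 to 7.39 in the Ep400 ko clones, 9.83 to 10.9 in wildtype and 8.68 to 10.4 in the Kat5 ko clones. With Pcdhgc3 and the other gamma rows matched by gene ID, Pcdhgc3 alone took 70.0% to 83.7% of the gamma reads in all libraries. Over these 22 genes the effective number was 2.62 to 3.34 in the Ep400 ko clones and 2.64 to 3.23 in wildtype, which overlapped, and 2.05 to 2.68 in the Kat5 ko clones.

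Individual gamma genes were present in one clone and nearly absent in the next. Pcdhga7 had 153, 95.7, 11.8 and 129 normalized counts in wildtype, 49.8, 0 and 0.8294 in the Kat5 ko clones and 381, 2.35 and 251 in the Ep400 ko clones. It was the leading gamma gene of the symbol rule in Ep400/1 and had 2 reads in Ep400/2, and wildtype library WT/3 was low as well. Pcdhgb6 had 494, 487, 380.0 and 499 in wildtype, 997, 49.6 and 53.1 in the Kat5 ko clones and 267, 590.3 and 555 in the Ep400 ko clones. Its 4 wildtype libraries agreed within a narrow range, while Kat5/1 was above and Kat5/2 and Kat5/3 were far below it. Pcdhga6 had 174 normalized counts in Kat5/1 and at most 17 in any other library.

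**Figure D4:**
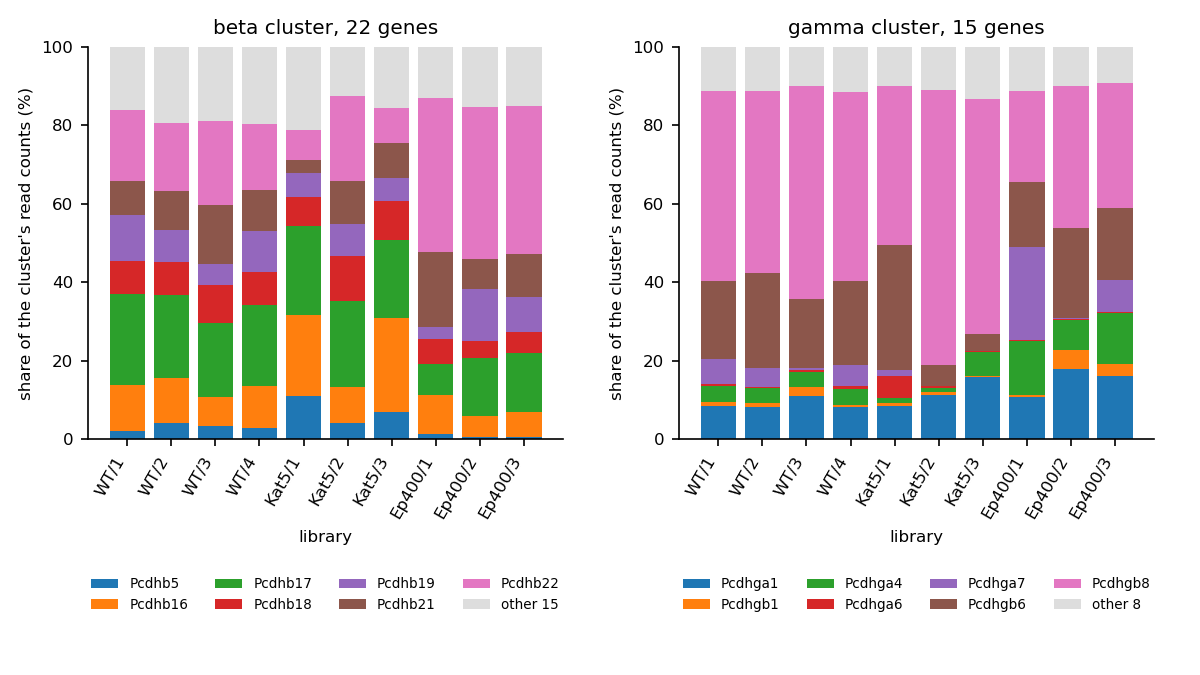
Share of the reads of each cluster (y axis, percent) held by its leading genes in each of the 10 libraries (x axis), for 22 beta genes (left) and 15 gamma genes (right) of the symbol rule. Colors mark the 7 genes with the highest share in any library, grey the rest. The gamma rows matched by gene ID, among them Pcdhgc3, are not in the total. Pcdhb22 takes 37.6% to 39.2% of beta reads in the Ep400 ko clones. Pcdhga7 takes 23.6% of the reads of the 15 gamma genes in Ep400/1 and 0.092% in Ep400/2.

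The spread between libraries was set beside that of all genes. For the 20 tested clustered protocadherins with means of 25 to 600 normalized counts, the median SD within a group, on the scale of log2(normalized count + 1), was 0.30 in wildtype, 1.22 in the Kat5 ko clones and 0.65 in the Ep400 ko clones. For all 4207 genes of that level the median SD was 0.38, 0.56 and 0.51 in the same groups. The share of reads that would have to be moved between genes to make 1 library look like another, over 15 gamma genes, was 2.67% to 13.9% between wildtype libraries, 14.4% to 36.9% between Kat5 ko clones and 13.7% to 32.3% between Ep400 ko clones. For the 22 beta genes these ranges were 6.75% to 16.7%, 13.4% to 30.0% and 6.53% to 21.7%. Over the 15 gamma genes, every pair of Kat5 ko clones was thus further apart than any pair of wildtype libraries. The closest pair of Ep400 ko clones was within the wildtype range. The gamma rows matched by gene ID are not in these distances, among them Pcdhgc3 with 70.0% to 83.7% of the gamma reads when they are included. These distances were not tested, and growth from a single cell cannot be told apart from the lost gene in them.

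Loss of Kat5 was addressed in the same way, and 0 of 44 genes tested passed edgeR's quasi-likelihood test at an adjusted p of at most 0.05. Over all 13434 genes tested 0.179% were higher and 0.447% lower, and 0.476% were DEGs. At an unadjusted p under 0.05 there were 6 genes, Pcdh9, Pcdh17, Pcdhgb4, Pcdhb5, Pcdhb21 and Cdh3, which is 6 of 44, against 22.3% of all genes. DESeq2 called 2 genes of the symbol rule, Pcdh9 and Pcdh17, and 1475 genes in all. The median log2-fold change was −0.18 over the 44 genes and 3.2e-05 over all genes. In the classes it was 0.21 for 4 classical cadherins and −0.33 for 30 clustered protocadherins, of which 10 had positive and 20 negative values. In all, 1 tested gene lay above and 4 lay below the wildtype range in all Kat5 ko clones, where 9.66% and 10.2% of all genes did so.

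Pcdh9 was the gene above the wildtype range in every Kat5 ko clone, with a log2-fold change of 1.47 ± 0.33, adjusted p = 0.0744. For Pcdh17 the values were 1.91 ± 0.59, adjusted p = 0.12. The genes below the range were the clustered protocadherins Pcdhb21, Pcdhb22, Pcdhga4 and Pcdhgb4, none called. Of the rows matched by gene ID, Pcdhgc5 had 112, 137, 127 and 95.6 normalized counts in wildtype and 50.8, 26.0 and 22.4 in the Kat5 ko clones, all below wildtype (-1.85 ± 0.41, adjusted p = 0.0744). It was called by DESeq2 (adjusted p = 0.000853) and by edgeR without Kat5/1 (0.00912).

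The result depended on clone Kat5/1, over all genes as well as in these. Without it edgeR called 7 of 45 genes tested, while its calls over all genes rose from 84 to 2654. Of the 7 genes, Pcdh9 was higher and Cdh3, Cdh23, Pcdhb12, Pcdhga7, Pcdhgb6 and Pcdhgb8 were lower. In this fit Cdh3, Cdh23, Pcdhb12 and Pcdhga7 passed the filter on low counts only through wildtype. They had to differ to be tested, so their calls add no support. Pcdhgb6 had a log2-fold change of −3.21 and an adjusted p of 0.00286. Without Kat5/2 edgeR called Pcdh9 alone, with 1.78 and an adjusted p of 0.0481, and 37 genes in all. Clone Kat5/1 had the highest beta total, with 2915 normalized counts against 997 and 1053 in Kat5/2 and Kat5/3 and 1282 to 1782 in wildtype. The median gene of chromosome 18, which carries the clusters, differed from the wildtype mean by 0.26, −0.18 and 0.13 (log2) in Kat5/1, Kat5/2 and Kat5/3. The clustered protocadherins summed to 49.2, 14.9 and 18.7 RPKM in the same clones, against 28.3 to 34.0 in wildtype. The part of the chromosome in the result was not tested. Centering each chromosome left the count of called genes at 0, where it was before.

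**Figure D5:**
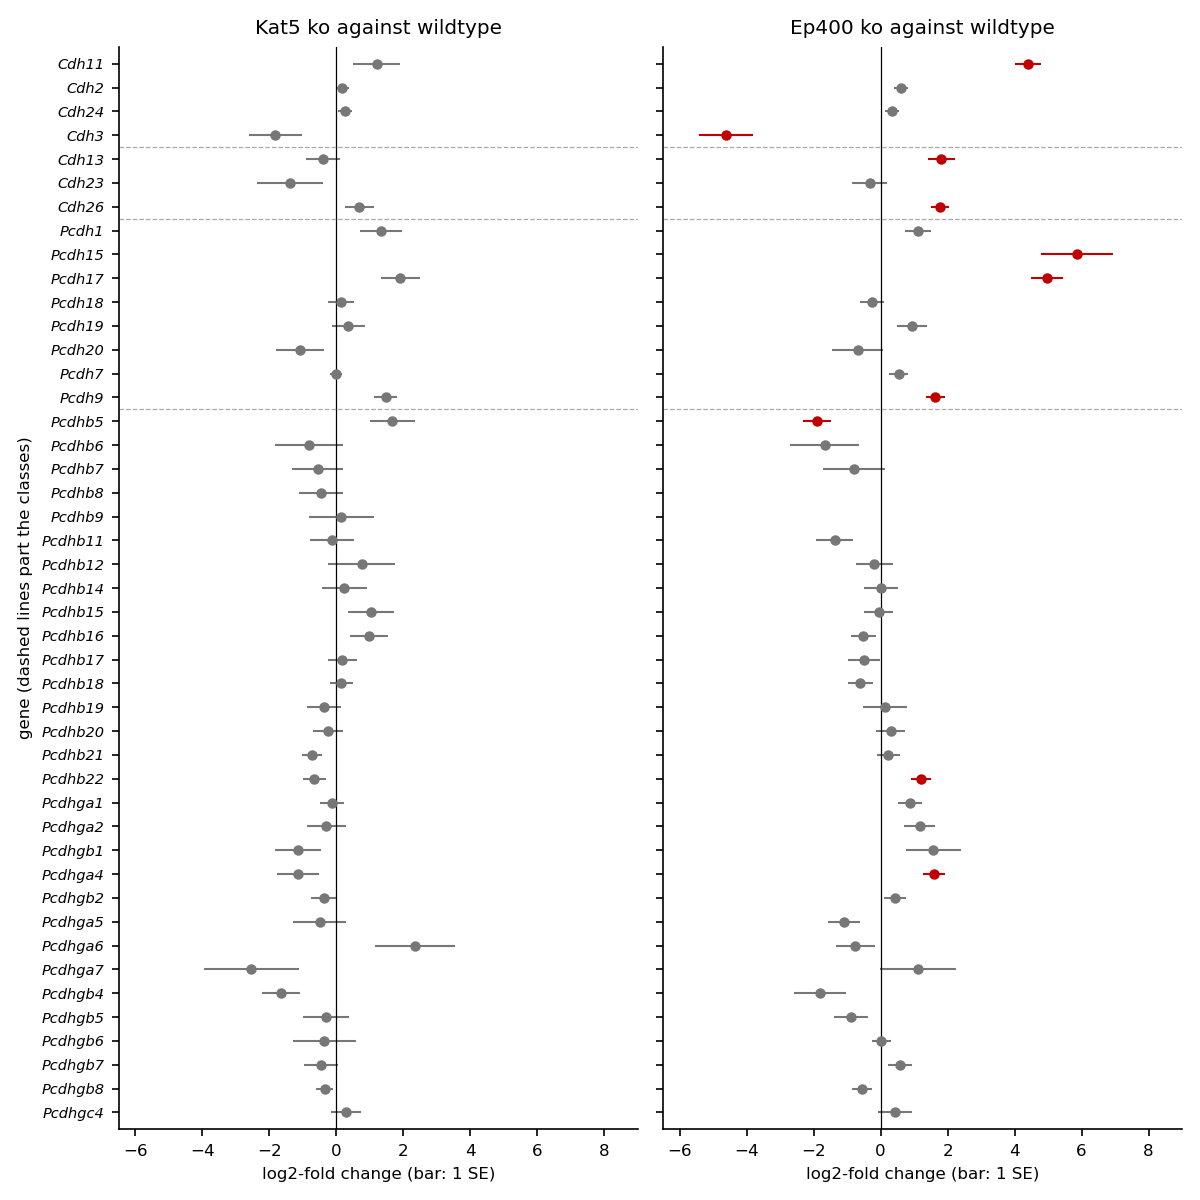
Log2-fold change with 1 SE (x axis) of each tested cadherin and protocadherin gene (y axis, grouped by class, clustered genes in genomic order), for Kat5 ko (left) and Ep400 ko (right) against the same wildtype libraries. Red marks the 10 genes with an adjusted p of at most 0.05, all of them for Ep400, and grey the others.

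A direct comparison of the knockouts asked whether Ep400 and Kat5 ko clones differed from each other. Of 37 genes tested 1 was higher in the Ep400 ko clones and none was lower by edgeR, against 4.22% and 2.83% of all 13587 genes tested, and the same gene was the 1 DEG, against 5.36% of all genes. At an unadjusted p under 0.05 there were 9 of 37 genes, against 32.4% of all genes. The gene was Pcdh17 with a log2-fold change of 3.02 ± 0.44, adjusted p = 0.0254, and all Ep400 ko clones were above all Kat5 ko clones. The median log2-fold change was 0.43 over the 37 genes and 0.01 over all genes. In all Ep400 ko clones, 10 of the 37 genes lay above the Kat5 ko range and 1 below it. Over all genes these shares were 20.5% and 18%. Among the genes without overlap, Cdh11 (3.15 ± 0.86, adjusted p = 0.0616), Cdh13 (2.17 ± 0.53, adjusted p = 0.0524) and Pcdhb5 (-3.63 ± 0.88, adjusted p = 0.0516) missed the threshold by edgeR. Over all genes edgeR called 958. DESeq2 called 7 of these genes, and 3067 over all genes. Without Kat5/1, edgeR called 6 genes (Pcdh17, Cdh11, Cdh13, Cdh23, Pcdhb5 and Pcdhgb6), and 2537 over all genes. Without Ep400/1 it called 2 genes (Pcdh17 and Cdh22), and 341 over all genes. It called none without Kat5/3, Ep400/2 or Ep400/3, where only 5, 29 and 3 genes were called over all genes. Cdh23 without Kat5/1 and Cdh22 without Ep400/1 passed the filter only through the Ep400 ko clones, so they had to differ to be tested. Among the rows matched by gene ID, Pcdhac2, a C-type gene at the end of the alpha cluster, had 4.15, 0 and 3.32 normalized counts in the Kat5 ko clones and 43.2, 34.1 and 91.8 in the Ep400 ko clones (4.36 ± 0.90, adjusted p = 0.0396). It passed the filter on low counts only through the Ep400 ko clones, as did Pcdh15, and its call held in 1 of 6 fits that left out a library, the one without Kat5/1 (adjusted p up to 0.149 in the others).

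Genes that work with cadherins were examined as lists. Of 17 adherens junction partners 13 were tested and none was called in any of the 3 comparisons by edgeR. Those with the smallest p for Ep400 were Vezt, a junctional membrane protein (log2-fold -0.66 ± 0.21, adjusted p = 0.0719), the catenin relatives Pkp4 (-0.56 ± 0.20, adjusted p = 0.0896) and Arvcf (1.06 ± 0.41, adjusted p = 0.118). For Kat5 they were Nectin3 (0.77 ± 0.25, adjusted p = 0.138), Jup (-0.74 ± 0.40, adjusted p = 0.312) and Vcl (0.36 ± 0.20, adjusted p = 0.32). For the catenins that link classical cadherins to actin, the values for Ep400 were -0.11 ± 0.14, adjusted p = 0.627 in Ctnnb1 and 0.10 ± 0.15, adjusted p = 0.689 in Ctnna1.

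Of 15 transcription factors known from cadherin switching 9 were tested, and 2 rose on loss of Ep400. Zeb2 had 3003 ± 851 against 1537 ± 115 normalized counts (SD) in Ep400 ko (n = 3) against wildtype (n = 4), with 0.97 ± 0.19, adjusted p = 0.0148. Snai2 (Slug) had 1859 ± 441 against 1027 ± 256, with 0.86 ± 0.24, adjusted p = 0.0451. Twist2 had 1.12 ± 0.35, adjusted p = 0.0666 and was not called. None was called for Kat5 by edgeR, where the smallest p were those of Tcf12 (-0.31 ± 0.15, adjusted p = 0.259), Snai1 (0.35 ± 0.20, adjusted p = 0.34) and Tcf4 (-0.34 ± 0.27, adjusted p = 0.491). Snai2 was also higher in Ep400 ko than in Kat5 ko clones (1.07 ± 0.23, adjusted p = 0.0409).

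Of 22 genes known to act on the clustered protocadherin locus 21 were tested, and 4 fell on loss of Ep400. These were the cohesin regulators Pds5a (-0.68 ± 0.15, adjusted p = 0.023) and Pds5b (-0.58 ± 0.13, adjusted p = 0.0257) and the histone H3 methyltransferases Ehmt1 (-0.43 ± 0.12, adjusted p = 0.0412) and Ehmt2 (-0.53 ± 0.13, adjusted p = 0.0335). The list had a median log2-fold change of −0.26, against 0.04 over all genes. Ctcf and the core cohesin genes were not called. None of the 21 was called for Kat5 by edgeR, where the smallest p were those of Trim28 (0.36 ± 0.14, adjusted p = 0.187), Dnmt3a (-0.49 ± 0.20, adjusted p = 0.198) and Dnmt1 (0.35 ± 0.15, adjusted p = 0.208).

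Beyond the genes of the symbol rule, 8 of 27 other cadherin superfamily genes were tested. In the Ep400 ko clones Dchs1, a giant protocadherin of planar cell polarity, was lower (-3.05 ± 0.36, adjusted p = 0.0033), and Cdhr1 of photoreceptors (at least 46.8-fold with a floor of 3 counts for each wildtype library, adjusted p = 0.00593, tested only through the Ep400 ko clones) and Fat2 (2.36 ± 0.64, adjusted p = 0.0424) were higher. For Kat5 none was called by edgeR, and the smallest p were those of Fat4, the partner of Dchs1 (1.57 ± 0.47, adjusted p = 0.114), Celsr1 (-1.67 ± 0.71, adjusted p = 0.21) and Dchs1 (-0.92 ± 0.52, adjusted p = 0.335). Fat1 was lower in Ep400 ko than in Kat5 ko clones (-1.14 ± 0.25, adjusted p = 0.0449). Of 10 proteases and cofactors that cut or process cadherins, Psen2, a catalytic part of gamma-secretase, rose on loss of Ep400 (1.357 ± 0.23, adjusted p = 0.00932). Mmp9 (-1.56 ± 0.57, adjusted p = 0.1) and Adam10, the sheddase of Cdh2 (0.43 ± 0.17, adjusted p = 0.124), were not called. For Kat5 none was called by edgeR, with values of -1.997 ± 0.91, adjusted p = 0.24 in Mmp9 and -0.20 ± 0.15, adjusted p = 0.459 in Adam17.

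Marker lists of other cell types were read beside these results. Stmn2, a neuronal gene, rose on loss of Ep400 (2.61 ± 0.74, adjusted p = 0.0493), and 8 neuronal and glial markers summed to 74.0 to 113 normalized counts in wildtype, 43.4 to 98.5 in the Kat5 ko clones and 160 to 305 in the Ep400 ko clones. Pecam1 of endothelium fell (-3.33 ± 0.75, adjusted p = 0.0236), and 6 endothelial markers summed to 29.4 to 62.4, 3.72 to 19.7 and 2.35 to 17.8. Of 6 muscle and 5 blood markers 1 each was tested and none was called. Within the neural crest and mesenchyme list, where 10 of 12 were tested, Pdgfra (2.25 ± 0.16, adjusted p = 0.00105), Tfap2a (1.37 ± 0.30, adjusted p = 0.023) and Snai2 rose. The part of a change in cell state or composition in the levels of Cdh11 and Pcdh17 was not tested.

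Each library was left out in turn from the comparison of Ep400 ko with wildtype. Cdh11, Pcdh17, Cdh26, Pcdh9, Cdh3 and Pcdh15 were called by edgeR in all 7 such fits, with adjusted p of at most 0.0432. Of these, Cdh3 passed the filter on low counts only through wildtype and Pcdh15 only through the Ep400 ko clones. Both had to differ to be tested, so their calls in these fits add no support. Pcdhga4 was lost without WT/4 (adjusted p = 0.0514), and Pcdhb5 without WT/2, WT/4 or Ep400/2 (0.0581 to 0.0625). Cdh13 was lost without WT/1, WT/4, Ep400/2 or Ep400/3 (0.0585 to 0.0715), and Pcdhb22 was called only without Ep400/1 (0.0626 to 0.0911 in the others). Pcdhga3, matched by gene ID, was called without WT/3, Ep400/1 or Ep400/3 and lost in the other 4 fits (0.053 to 0.069). Calls were also gained. Without Ep400/1 these were Cdh22, Pcdhga1 and Pcdhgb1, and without Ep400/2 Cdh19 and Pcdh10. Without Ep400/3 they were Cdh2 (0.77, adjusted p = 0.0454), Pcdh18 (−0.91, adjusted p = 0.0315) and Pcdhgb4 (−3.14, adjusted p = 0.0454). In these fits Cdh22, Cdh19 and Pcdh10 passed the filter only through the Ep400 ko clones, and Pcdhgb4 only through wildtype. They too had to differ to be tested, so their gained calls add no support.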

How the data were processed

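RNA of 10 libraries of O9-1 cells was sequenced by the authors on a NovaSeq with paired reads, after poly-A selection with the TruSeq Stranded mRNA kit. The submitters' processing notes name bcl2fastq 2.20, STAR 2.7.3, DESeq2 1.36.0, R 4.2.1 and the build mm10. The deposited table holds raw read counts per gene. The counting program, the annotation, the use of strand and the treatment of shared exons are not given in the sources used here. The 2 deposited tables of normalized values were not used.

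Counts were analysed in R 4.3.3 with edgeR 4.0.16 and limma 3.58.1, separately for each pair of groups. Genes were filtered with filterByExpr (minimum count 10), scaled by TMM and tested with glmQLFit (robust) and glmQLFTest, with Benjamini-Hochberg adjustment over all genes tested. A gene was called at an adjusted p of at most 0.05. A DEG also had a log2-fold change of 1 or more in either direction and over 100 normalized counts on average in 1 of the groups. DESeq2 1.42.0 was an alternative. The scripts were tested on simulated data. Wildtype libraries are described as biologically independent and each clone is 1 library. No pair of libraries of a group agreed within sampling noise, so none was treated as a duplicate.

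Positions and exon lengths are from GENCODE M21 on GRCm38. Genes named are those called in any comparison, those with a mean of over 100 normalized counts in any group and the leading genes of the clusters, with values per library for DEGs and for the 12 genes with the highest mean. For lists of related genes the 3 smallest p are given, except for 1 gene that is not reported here. The members and lists were chosen with earlier results of these data known. Of the listed genes, Zfp274 was not found in the table, and genes under older symbols were matched by gene ID. Alternatives were other scalings, other filters, a fit of all 10 libraries, a replicate block and leaving out each library, computed for every tested gene. Centering each chromosome, adding the 13 rows matched by gene ID and a fit without robust estimation were chosen after seeing the data.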

Additional observations from a re-analysis of the deposited data

Results flagged for a closer look

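In 27 genes examined, a single library stood apart from the other wildtype libraries in 3, by a gap to the nearest library, as a share of the group's range, above Dixon's 95% critical value. Chance alone gives this in about 1 of 20 groups. For Cdh2 the gap was 0.830 of the range, with WT/3 low at 5201 normalized counts. For Pcdhgb6 it was 0.903, with WT/3 low at 380.0. For Pcdh15 it was 1, since WT/3 was the only wildtype library with reads. Both knockouts differed from each other in Pcdh17, by a log2-fold change of 3.02, and in Pcdhac2, a row matched by gene ID, by 4.36. Pcdhac2 had 0 to 4.15 normalized counts in the Kat5 ko clones and could be tested only through the Ep400 ko clones, so its fold rests on near-zero counts.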

How the results depend on the processing

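The count of called cadherin and protocadherin genes was 10 for Ep400 ko against wildtype, where 1899 genes were called in all. It was 7 to 12 under other scalings, filters, tools and fits, with 1272 to 3131 called in all. The replicate block left 2 (Pcdh17 and Cdh11), with 166 called in all. Leaving out 1 library at a time gave 6 to 13, with 804 to 2020 called in all. For Kat5 ko against wildtype 0 members and 84 genes in all were called. These became 2 and 1475 with DESeq2, 1 and 286 without a filter on low counts, and 0 and 0 with the replicate block. Leaving out a library gave 0 to 7 members and 1 to 2654 genes in all. For Ep400 ko against Kat5 ko 1 member and 958 genes in all were called. These became 7 and 3067 with DESeq2, 6 and 1445 without the filter, and 7 and 3555 in a fit of all 10 libraries. They became 3 and 994 without robust estimation and 3 and 996 with centered chromosomes. With the rows matched by gene ID 2 were called. Leaving out a library gave 0 to 6 members and 3 to 2537 genes in all. The replicate block kept 1 member, with 213 genes in all. The deviations of same-numbered libraries from their group means had correlations of -0.116 to 0.231. These were not set against libraries of unlike number, so whether same-numbered libraries share more than a number was not tested. The summed levels of the clusters moved by less than 1 SD under other scalings. The cause of these changes was not tested. With 3 or 4 libraries a group and genes of under 100 normalized counts, small changes could not be resolved. Of 145 gene values of the 3 comparisons (each tested gene, rows matched by gene ID included), 44 changed sign under at least 1 alternative, 99 times in all. None of these was called as reported, and 1 was past the threshold after the change, Pcdhb12 for Kat5 ko against wildtype without Kat5/1 (0.75 as reported, -2.20 without it). In that fit Pcdhb12 passed the filter on low counts only through wildtype, so it had to differ to be tested. In Kat5 ko against wildtype, DESeq2 gave 0.0061 in Pcdh7. In Kat5 ko against wildtype, relative log expression factors gave 0.0061 in Pcdh7. In Kat5 ko against wildtype, library size as the only scaling gave -0.013 in Pcdhgc3. In Kat5 ko against wildtype, 1 fit of all 10 libraries gave 0.023 in Pcdh7. In Kat5 ko against wildtype, the replicate block gave -0.54 in Pcdhb12, -0.12 in Pcdhb14, -0.55 in Pcdhb9, -0.10 in Pcdhgc3 and 0.021 in Pcdh7. In Kat5 ko against wildtype, centered chromosomes gave -0.056 in Pcdhb9 and -0.12 in Pcdhgc3. For Kat5 ko against wildtype, leaving out a library gave -0.37 to 1.67 in Cdh11, -0.090 to 0.54 in Pcdh18, -0.078 to 0.62 in Pcdh19, -0.091 to 0.14 in Pcdh7, -1.18 to 0.27 in Pcdhb11, -2.20 to 1.31 in Pcdhb12 and -0.89 to 0.71 in Pcdhb14. It also gave -0.12 to 1.49 in Pcdhb15, -0.59 to 0.46 in Pcdhb17, -0.27 to 0.34 in Pcdhb18, -0.88 to 0.073 in Pcdhb20, -2.24 to 0.67 in Pcdhb9, -0.47 to 0.18 in Pcdhga1 and -0.65 to 0.076 in Pcdhga2. It also gave -1.03 to 0.13 in Pcdhga3, -1.35 to 2.92 in Pcdhga6, -1.06 to 0.19 in Pcdhgb5, -3.21 to 0.16 in Pcdhgb6 and -0.43 to 0.35 in Pcdhgc3. In Ep400 ko against wildtype, DESeq2 gave -0.019 in Pcdhb14 and -0.0020 in Pcdhgb6. In Ep400 ko against wildtype, relative log expression factors gave -0.019 in Pcdhb14, -0.0036 in Pcdhga8 and -0.0016 in Pcdhgb6. In Ep400 ko against wildtype, no filter gave -0.043 in Pcdhb14, -0.027 in Pcdhga8 and -0.025 in Pcdhgb6. In Ep400 ko against wildtype, the replicate block gave -0.046 in Pcdhb14, -0.27 in Pcdhga8 and -0.014 in Pcdhgb6. For Ep400 ko against wildtype, leaving out a library gave -0.91 to 0.010 in Pcdh18, -1.85 to 0.0075 in Pcdh20, -0.49 to 0.25 in Pcdhb12, -0.58 to 0.37 in Pcdhb14, -0.22 to 0.29 in Pcdhb15, -0.25 to 0.61 in Pcdhb19 and -0.19 to 0.65 in Pcdhb20. It also gave -0.11 to 0.45 in Pcdhb21, -0.26 to 0.22 in Pcdhga11, -0.63 to 0.55 in Pcdhga8 and -0.20 to 0.30 in Pcdhgb6. In Ep400 ko against Kat5 ko, the replicate block gave 0.51 in Pcdhb12, 0.13 in Pcdhb14, 0.032 in Pcdhga5 and 0.10 in Pcdh1. In Ep400 ko against Kat5 ko, centered chromosomes gave -0.0080 in Cdh24. For Ep400 ko against Kat5 ko, leaving out a library gave -0.12 to 0.16 in Cdh24, -0.78 to 0.40 in Pcdh1, -0.81 to 1.27 in Pcdh20, -0.20 to 0.42 in Pcdh9, -1.51 to 1.95 in Pcdhb12, -0.86 to 0.84 in Pcdhb14 and -1.61 to 0.0088 in Pcdhb15. It also gave -1.29 to 0.039 in Pcdhb17, -1.11 to 0.96 in Pcdhga5, -1.13 to 0.13 in Pcdhgb5, -0.19 to 3.17 in Pcdhgb6, -0.46 to 0.11 in Pcdhgb8, -0.15 to 0.63 in Pcdhgc3 and -0.16 to 0.45 in Pcdhgc4.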
